A study of Homo sapiens with 19 samples.

Results

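The genes described here mostly encode enzymes and core subunits that modify or move nucleosomes. They were chosen by name, as the protein-coding genes whose GENCODE symbol belongs to the KMT, SETD or SETDB, KAT, KDM, HDAC, CHD, SMARC or ARID series, together with CREBBP and EP300. This gave 92 of the 19942 tabulated genes and, through them, 1550 of the 256980 transcripts in the transcript-level data. The rule itself uses names and no measured value.

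All samples were SH-SY5Y cells, a human neuroblastoma line. RNA bound to the stress granule (SG) proteins G3BP1 and G3BP2 was profiled by eCLIP in untreated cells (Ctrl) and in cells treated with sodium arsenite (AS), with 2 libraries for each protein and treatment. Poly-A RNA-seq was done with 1 library each for cells transfected with siCtrl, siG3BP1 or siG3BP2, for the cleared lysate of AS-treated cells (Total), and for SG cores pelleted from such a lysate and purified with an antibody to G3BP1 (SG). One further pair of rRNA-depleted libraries, with 1 library each, came from untreated and AS-treated cells. The labels give AS as 500 μM for 1 h for the rRNA-depleted library and as 50 mM for 1 h for the libraries of the other experiments, controls included, so these labels disagree with each other. The study's methods describe arsenite exposure at the former dose. With 1 library per RNA-seq condition there was no replicate check, no test and no p-value for any RNA-seq comparison, and 1 preparation stood for each knockdown and for the SG core.

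DNA in the nucleus is wound around histones. Lysine methyltransferases (KMT and SETD genes) and acetyltransferases (KAT genes, CREBBP and EP300) write marks on histone tails, while demethylases (KDM) and deacetylases (HDAC) remove them. The CHD proteins and the SMARCA ATPases slide or evict nucleosomes. The remaining SMARC and some of the ARID proteins are subunits that assemble and target chromatin complexes, without enzyme activity of their own. Some members act outside chromatin, such as SETD3, which methylates actin, and HDAC6, which deacetylates tubulin. Many of these genes are sensitive to dosage in the nervous system, CREBBP and EP300 in Rubinstein-Taybi syndrome and KMT2D and KDM6A in Kabuki syndrome. SGs are cytoplasmic assemblies of untranslated mRNA and protein that form under stress, with G3BP1 and G3BP2 as core proteins.

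The targeted genes followed the labels. G3BP1 was at 18.7 TPM (transcript abundance scaled for length and depth) in siCtrl and at 32.0% of that level in siG3BP1, and G3BP2 was at 38.1 TPM in siCtrl and at 29.9% of that level in siG3BP2. Of 10 markers of neuroblastoma identity, 9 were above 10 TPM in all 5 TPM libraries and TH was below 1 in all of them. Of 6 markers of other cell types, 4 were below 1 TPM in all libraries, and their summed level was 11.3 to 48.1 TPM against 3288 to 6239 TPM for the neuroblastoma markers. The TPM of protein-coding genes summed to between 623955 and 735927 per library.

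A motif from the study's eCLIP peaks, spelled CCAGCCTGG or CCAGGCTGG, was searched in the sense strand of the canonical mRNA of every gene. These spellings are each other's reverse complement, so both strands were covered. The motif was found in 22 of the 92 genes (23.9%), against 28.0% of all 19892 mRNAs searched, and at 7.33 sites per 100 kb of mRNA against 14.9. Among mRNAs of at least 5000 nt it was in 22 of 57 member genes (38.6%), against 50.3% of all mRNAs of that length. Of the 42 sites in mRNA, 30 lay in 3′ UTRs and 12 in coding sequence. Over whole gene spans, introns included, the direction was the opposite. There the motif was in 97.8% of members against 87.4% of all genes, at 53.6 sites per 100 kb against 42.4. The median span was 61619 nt for members and 27593 nt for all genes. The same letters occur in Alu repeats, which were not annotated here. The sites shown are those of CREBBP and KMT2D, which were among the members with the largest SG ratios. EP300, KAT6A and ARID2 had none in their canonical mRNA. Capitals mark the motif, the sequence is the RNA strand written as DNA (both genes are on the minus strand), and coordinates of the motif are on GRCh38.
CREBBP, exon 31, coding, chr16:3728652-3728660: gcatgcaaccCCAGCCTGGcatgcaccag
CREBBP, exon 31, coding, chr16:3728688-3728696: gcatgcagccCCAGCCTGGcctccagtcc
KMT2D, exon 17, coding, chr12:49046330-49046338: gggccctgtgCCAGCCTGGtgacctgccc

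The comparison of SG with Total asked which of these mRNAs were recovered with SG cores. Most were far higher in SG. A ratio here is taken on TPM + 1, and a gene is called higher or lower where that ratio is above 2 or below 0.5 with more than 1 TPM in the higher library. Of the 92 members, 89 had at least 1 TPM in either library; 71 of them were higher in SG and 1 was lower, against 62.9% higher and 9.45% lower among all 13560 genes with that level. The median log2 ratio was 3.03 for members and 1.51 for all genes. The libraries are offset as a whole: among genes above 1 TPM in both, the median ratio was 2.78 (1.47 on the log2 scale). After dividing by that ratio, 56 of 88 members were higher and 8 were lower, against 35.3% and 25.6% of all genes, with medians of 1.62 and 0.29. The members took 0.227% of the summed TPM in Total and 1.42% in SG. Both are shares of the TPM of 1 library, a lysate and a fraction purified by antibody, and do not give amounts of RNA per cell.

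CREBBP and EP300, paralogous acetyltransferases and transcriptional coactivators, stood near the top. CREBBP was at 0.777 TPM in Total and 301 TPM in SG, a log2 ratio of 7.41 and rank 2 of the 13560 genes. EP300 was at 1.44 TPM in Total and 175 TPM in SG, a log2 ratio of 6.17 and rank 46. Both were at or near 1 TPM in Total, so the size of these ratios rests on low denominators. Set against siCtrl, where they were at 14.9 and 14.8 TPM, the SG levels gave log2 ratios of 4.25 and 3.47. There were 7 members among the 100 largest ratios of all genes, where members were 89 of the 13560 genes ranked. Besides CREBBP and EP300 these were KAT6A, ARID2, KMT2D, SETD1B and ARID1A. Of the 71 members higher in SG, 13 were below 1 TPM in Total and 35 were at 5 TPM or above. With siCtrl in place of Total as the denominator, 64 members were higher and 2 were lower, against 53.8% and 10.3% of all genes.

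**Figure D1:**
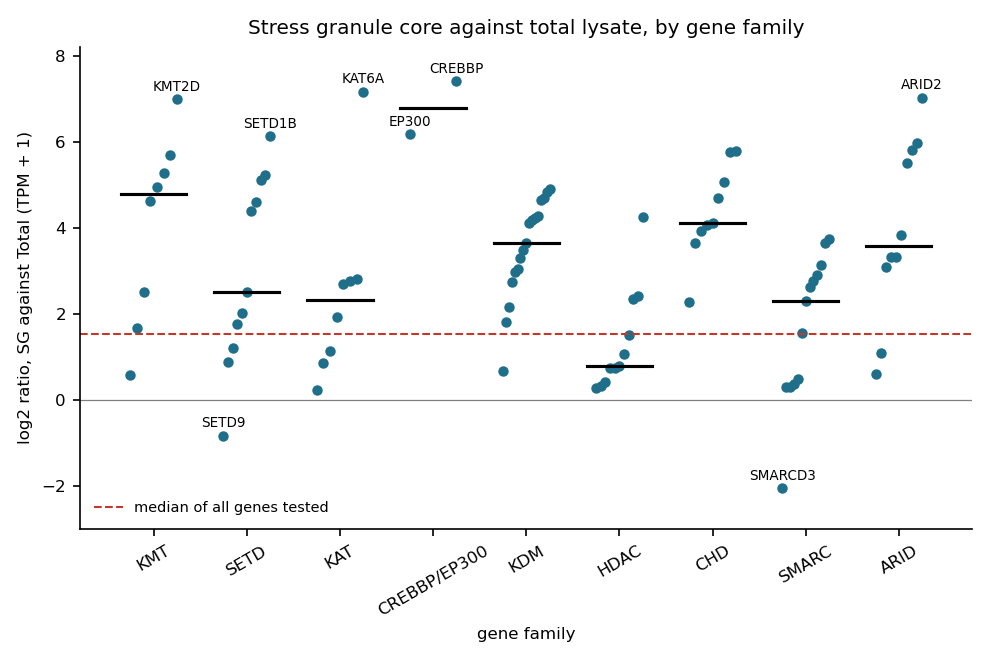
Each point is a member gene with at least 1 TPM in SG or Total, placed by gene family (x axis) and by its log2 ratio of TPM + 1 in SG against Total (y axis). Black bars are family medians and the dashed line is the median of all genes tested, 1.51. The HDAC genes had the lowest family median, 0.78, and SMARCD3 was the member with the lowest ratio.

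Among the methyltransferases, 7 of 8 KMT genes and 9 of 11 SETD genes were higher in SG. KMT2D, which methylates histone H3 at enhancers, was at 1.70 TPM in Total and 344 TPM in SG, a log2 ratio of 6.99. SETD1B, a catalytic subunit of a COMPASS complex at promoters, was at 1.1 and 147 TPM, a log2 ratio of 6.13. These large enzymes contrast with smaller SET-domain proteins. KMT5A, which monomethylates histone H4, was at 12.6 and 42.3 TPM, a log2 ratio of 1.68. SETDB1, which places repressive methylation, was at 23.1 and 136 TPM, a log2 ratio of 2.51. SETD9 was at 12.5 TPM in Total and 6.58 TPM in SG, a log2 ratio of -0.84 that did not pass the fold, though it reached -2.01 after rescaling. SETD9 overlaps MIER3 on the opposite strand, and the sources used here do not say whether reads were assigned by strand.

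Among the acetyltransferases, 6 of 8 KAT genes were higher in SG, with a wide spread. KAT6A, the MYST-family enzyme also called MOZ, was at 0.590 TPM in Total and 226 TPM in SG, a log2 ratio of 7.16 and rank 7. KAT8, the MYST enzyme also called MOF, was at 44.5 and 81.4 TPM, a log2 ratio of 0.86. KAT5, the catalytic subunit of the TIP60 complex, was at 39.5 and 46.5 TPM, a log2 ratio of 0.23. After rescaling KAT5 was below the lower fold, at -1.19. Enzymes of the same MYST family therefore lay at opposite ends of the members.

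The demethylases and deacetylases differed. Of the KDM genes, 16 of 17 with enough TPM were higher in SG, with a median log2 ratio of 3.65, while KDM4E and KDM4F were below 1 TPM in both libraries and 1 further member was not described. KDM1A, the flavin-dependent demethylase also called LSD1, was the exception, at 138 and 218 TPM, a log2 ratio of 0.66. Of the 11 HDAC genes, 5 were higher in SG, and after rescaling 1 was higher and 2 were lower. HDAC1, the class I enzyme of the NuRD and Sin3 complexes, was at 36.4 and 63.0 TPM, a log2 ratio of 0.78. HDAC8 was at 33.8 and 40.8 TPM, a log2 ratio of 0.26. In a split by class made after the values were seen, the log2 ratios of the class I genes (HDAC1, HDAC2, HDAC3 and HDAC8) ran from 0.26 to 1.05. Those of the class IIa genes (HDAC4, HDAC5, HDAC7 and HDAC9) ran from 1.5 to 4.25, and these classes did not overlap. HDAC4 had the highest of these ratios and the lowest levels, 0.244 and 22.7 TPM. The classes were not matched for transcript length, and HDAC6, HDAC10 and HDAC11 were outside the split.

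Among the remodelers, all 9 CHD genes were higher in SG, under the rescaling too. CHD4, the ATPase of the NuRD complex, was at 59.0 and 746 TPM, a log2 ratio of 3.64 and the highest SG level of any member. Of the 13 SMARC genes 8 were higher and 1 was lower. SMARCA4, the BRG1 ATPase of the BAF (SWI/SNF) complex, was at 87.8 and 434 TPM, a log2 ratio of 2.29. SMARCD3, a BAF subunit also called BAF60C, was the only member below the lower fold, at 78.3 TPM in Total and 18.0 TPM in SG, a log2 ratio of -2.06. Its level was 83.7 to 92.1 TPM in the 3 transfected libraries. SMARCD3 overlaps CHPF2 on the opposite strand. Its paralog SMARCD1 was at 73.1 and 215 TPM, a log2 ratio of 1.54. The core subunit genes SMARCB1 and SMARCE1 had log2 ratios of 0.28 and 0.29, and 5 members, SMARCB1, SMARCD2, SMARCE1, HDAC2 and HDAC8, lay below the lower fold after rescaling, at -1.15 to -1.08. Among the ARID genes, 9 of 10 were higher. ARID2, the defining subunit of the PBAF complex, was at 0.324 and 171 TPM, a log2 ratio of 7.02. ARID1A, the BAF subunit often mutated in cancer, was at 10.5 and 713 TPM, a log2 ratio of 5.96.

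The members were long. Their median longest transcript was 6305 nt against 3336 nt for all genes, their median canonical coding length was 3278 nt against 1272 nt, and 62 of 92 had a transcript of at least 5000 nt against 27.2% of all genes. Within that length class, 55 of 61 members (90.2%) were higher in SG, against 89.0% of all genes of the class. The median log2 ratios there were 4.06 and 2.92. Among shorter genes, 16 of 28 members (57.1%) were higher, against 50.5% of all, with medians of 1.11 and 1.02. The members' share higher in SG was thus close to that of all genes in the longer class, where their ratios were larger. Among genes with a longest transcript of 7000 to 10000 nt, the 25 members had a median of 4.25 against an upper quartile of 4.22 for all genes, and from 10000 nt on, the 11 members had 5.50 against 4.79.

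Across the 89 members, the log2 ratio of SG to Total was correlated with log10 of the longest transcript (Pearson's r = 0.74, Spearman's rho = 0.73) and with log10 of the canonical coding length (r = 0.80, rho = 0.80), and less with log10 of the canonical 3′ UTR length (r = 0.41, rho = 0.38). Over all genes these r values were 0.58, 0.55 and 0.46. Genes are not independent replicates, all points share the same 2 libraries, and these values are descriptions. Members whose canonical 3′ UTR is longer than their coding sequence lay across the range, from SMARCB1, SMARCE1 and HDAC2 at the low end to SETD7 (4.38), KDM7A (4.90) and ARID5B (5.80). HDAC2 has a canonical transcript of 9737 nt, of which 1464 nt are coding, and it was at 39.9 TPM in Total and 49.7 TPM in SG, a log2 ratio of 0.31. SMARCE1 has 1233 coding nt in a canonical transcript of 5150 nt, and was at 44.4 and 54.6 TPM. KMT2D, with 16611 coding nt, and CREBBP, with 7326, had ratios near the top. Members with the eCLIP motif in their mRNA had a median log2 SG ratio of 2.82 (22 genes), and those without it 3.08 (67 genes), with median mRNA lengths of 7535 and 5315 nt. Their median log2 ratios were -0.28 with and -0.14 without it in siG3BP1, and -0.38 and -0.18 in siG3BP2.

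**Figure D2:**
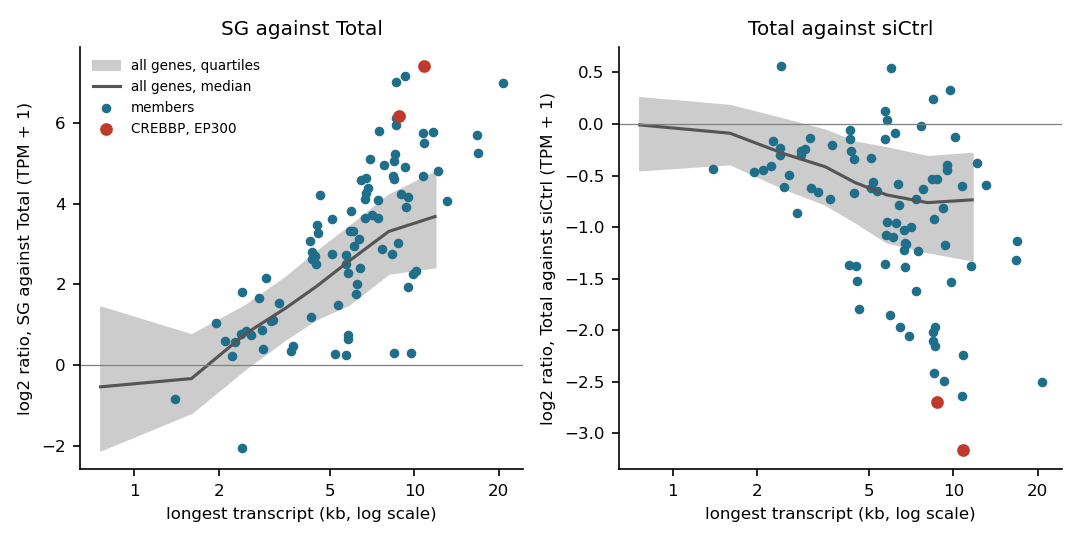
Log2 ratios of TPM + 1 against the length of the longest transcript in kb on a log axis, for SG against Total (left) and Total against siCtrl (right). Points are members (CREBBP and EP300 in red), the line is the median of all genes in bins of length and the band their quartiles. Long genes lie high on the left and low on the right, and from 7000 nt on the left the median of the members is above the upper quartile of all genes.

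Total was itself low in many of these mRNAs. Total and siCtrl differ in AS, in transfection and in the clearing of the lysate, and these cannot be told apart. Of 86 members with at least 1 TPM in either library, 33 were lower in Total and 0 were higher, against 19.6% lower and 1.28% higher among all genes. After dividing by the median ratio of 0.750, 22 were lower and 0 were higher, against 10.7% and 3.63% of all genes. The same denominator library enters the SG ratios, so low Total values raise them. CREBBP had the lowest ratio, with 14.9 TPM in siCtrl and 0.777 in Total, a log2 ratio of -3.16. EP300 followed at 14.8 and 1.44 TPM, a log2 ratio of -2.70, and CHD6, KMT2D, KAT6A and SETD1B lay between -2.64 and -2.42. Both coactivators, 7 of 9 CHD genes and 6 of 9 tested ARID genes were lower, whereas 0 of 10 tested HDAC genes were. At the other end were KDM8 (1.75 TPM in siCtrl and 3.06 in Total), ARID4B (7.61 and 11.5), HDAC2 (31.6 and 39.9), SMARCE1 (37.3 and 44.4), HDAC8 (30.8 and 33.8) and KDM1A (134 and 138), none past the fold. Among genes with a transcript of at least 5000 nt, 29 of 58 members were lower (50.0%, against 34.3% of all such genes), and among shorter ones 4 of 28 (14.3%, against 13.1%).

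The knockdowns asked whether mRNA levels depend on G3BP1 or G3BP2. Few members passed the fold in either. In siG3BP1, 4 of 87 members were lower and 0 were higher, against 1.98% and 1.12% of all genes, and the median log2 ratio was -0.15 against -0.08. In siG3BP2, 8 of 86 members were lower and 1 was higher, against 2.89% and 1.23% of all genes, and the median was -0.24 against -0.12. After rescaling by the median ratio (0.941 and 0.919), the members counted 4 lower and 0 higher in siG3BP1, against 1.77% and 1.34% of all genes. In siG3BP2 they then counted 6 lower and 2 higher, against 2.36% and 1.57% of all genes. Both comparisons share the single siCtrl library, so a high value there lowers both ratios.

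CREBBP and EP300 were at their lowest in siG3BP2 among the 3 transfected libraries. CREBBP was at 14.9 TPM in siCtrl, 14.3 in siG3BP1 and 6.41 in siG3BP2, with log2 ratios of -0.05 and -1.10. EP300 was at 14.8, 12.7 and 4.33 TPM, with log2 ratios of -0.21 and -1.57. Both were below the lower fold in siG3BP2 and not in siG3BP1, a contrast that could not be tested, and after rescaling CREBBP, at -0.99, no longer was. KAT6A was at 7.93, 5.75 and 1.42 TPM, with log2 ratios of -0.40 and -1.88. KDM4C, a demethylase of repressive marks, was at 3.91, 3.97 and 0.826 TPM, the latter a log2 ratio of -1.43. CHD8, a remodeler whose gene is linked to autism, was at 24.4, 24.1 and 11.7 TPM, a log2 ratio of -1.0 in siG3BP2 that no longer passed after rescaling. These genes are the members below the lower fold in siG3BP2 and not in siG3BP1. A siG3BP1 level above that of siG3BP2 follows from that choice, and there is no replicate to set the difference against.

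There were 3 members below the fold in both knockdowns, CHD6, ARID2 and CHD2. CHD6 was at 8.75 TPM in siCtrl, 1.63 in siG3BP1 and 1.39 in siG3BP2, with log2 ratios of -1.89 and -2.03. ARID2 was at 4.88, 0.891 and 0.855 TPM, with log2 ratios of -1.64 and -1.66. CHD2, a remodeler linked to epilepsy, was at 10.5, 4.11 and 3.56 TPM, with log2 ratios of -1.18 and -1.34. The 3 genes were also low in Total, at 0.566, 0.324 and 4.13 TPM. SMARCB1 passed the fold in siG3BP1 and not in siG3BP2, at 27.0 TPM in siCtrl, 8.61 in siG3BP1 and 25.8 in siG3BP2, a log2 ratio of -1.54 in siG3BP1. It overlaps DERL3 on the opposite strand. SETD7 (3.50, 1.45 and 3.59 TPM) and KMT2D (14.3, 7.64 and 9.91 TPM) were the next lowest in siG3BP1, within the fold. In the other direction, KDM6A (also called UTX), which removes a Polycomb mark, was at 1.38, 2.57 and 4.13 TPM and passed the fold in siG3BP2 with a log2 ratio of 1.11. KDM8 was at 1.75, 4.0 and 4.33 TPM, with log2 ratios of 0.86 and 0.95, and passed the fold in siG3BP2 after rescaling. The remaining members with the largest ratios were within the fold, at 0.36 to 0.49 in siG3BP1 (HDAC10, ARID4A, KMT2E and KMT5C) and 0.12 to 0.34 in siG3BP2 (HDAC3, HDAC2, SMARCE1 and ARID4B).

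**Figure D3:**
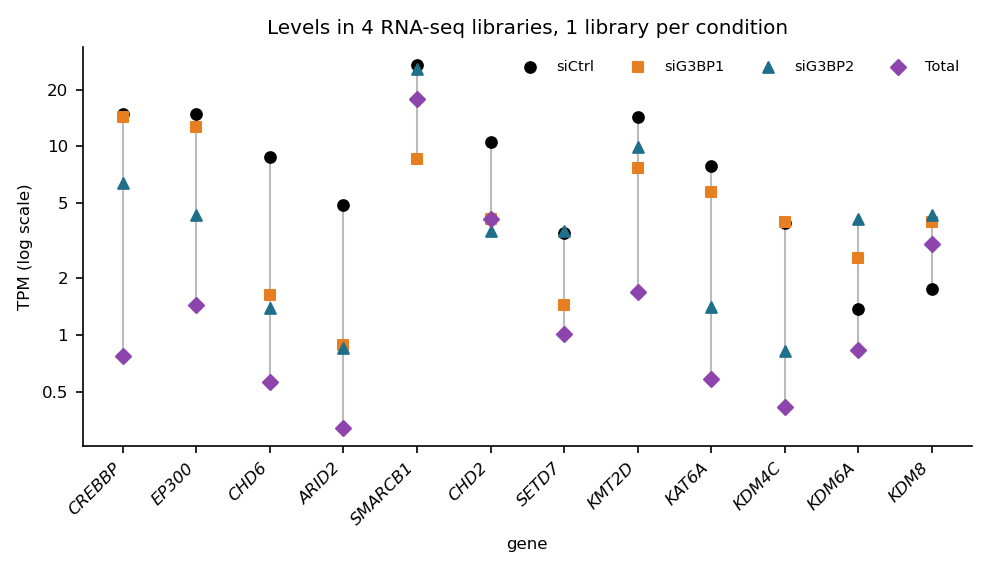
TPM on a log axis of CREBBP, EP300, the 6 members with the lowest ratio in each knockdown, and KDM6A and KDM8, in siCtrl, siG3BP1, siG3BP2 and Total, with 1 library per condition. Grey lines span the lowest and highest of the 4 values, and CHD6 and ARID2 are low in both knockdowns and in Total.

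The rRNA-depleted libraries addressed what AS did to the RNA of whole cells. Almost no member passed the fold. The deposited values behave as RPKM (reads scaled by transcript length and library depth) and were summed over the transcripts of a gene, in which a read can count for several transcripts. Of 86 members with a sum of at least 1, 1 was higher after AS and 0 were lower, against 3.64% and 0.56% of all genes, and the median log2 ratio was 0.25 against 0.27. After dividing by the median ratio of all genes, 1.21, 0 were higher and 1 was lower, against 1.89% and 0.78% of all genes. The gene past the fold was ARID4A, a Sin3-associated subunit, at 12.9 untreated and 30.3 after AS, a log2 ratio of 1.17. The gene that passed after rescaling was KMT2D, at 90.7 and 47.5, with a log2 ratio of -0.92 before and -1.19 after rescaling. CREBBP was at 91.6 and 85.2 and EP300 at 33.7 and 36.2, log2 ratios of -0.10 and 0.10. Their near-equal levels stand beside their high SG and low Total values, although the lysate and the library type differ as well.

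Whole reads could be recovered for the canonical transcripts. KMT2D had 2801 reads untreated and 1331 after AS, a depth-scaled log2 ratio of -0.84 (95% exact interval -0.932 to -0.742). ARID4A had 141 and 286 reads, a log2 ratio of 1.26 (0.961 to 1.558). Intervals here cover counting error only, and neither gene had a replicate library. CREBBP had 1597 and 1249 reads, a log2 ratio of -0.12 (-0.226 to -0.010), and EP300 had 786 and 743 reads, a log2 ratio of 0.16 (0.009 to 0.302). By gene sums, the lower quartile of all genes was a log2 ratio of 0.09, with EP300 (0.10) at about that quartile and CREBBP (-0.10) below it. Other members with high gene-level ratios, all within the fold, were KDM3A (0.88), ARID4B (0.86), SMARCA2 (0.82), CHD1 (0.75) and KDM5B (0.73). The lowest after KMT2D were CHD5 (-0.49), HDAC4 (-0.40), KDM4B (-0.24), SETD1A (-0.20) and KMT2A (-0.13). These 10 genes included demethylases and remodelers at both ends.

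**Figure D4:**
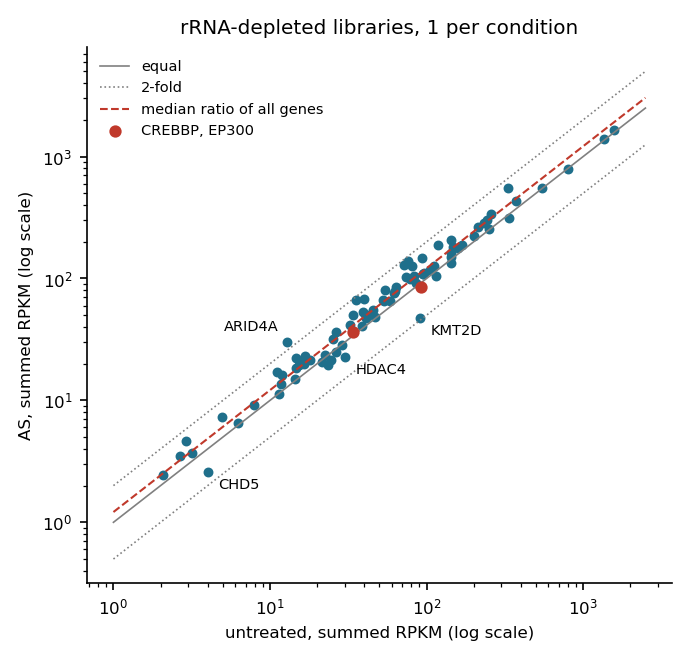
Summed RPKM of each member in the untreated (x axis) and AS-treated (y axis) rRNA-depleted library, both on log axes, with 1 library per condition. Solid and dotted grey lines mark equal values and 2-fold differences, and the dashed red line the median ratio of all genes, 1.21. ARID4A lies above the upper dotted line and KMT2D near the lower one.

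Among single transcripts of these genes, 9 of 1262 with a value of at least 1 were higher after AS and 2 were lower, against 1.51% and 0.47% of all transcripts. After rescaling, 2 were higher and 8 were lower, against 0.74% and 0.65% of all transcripts, so the share of 8 in 1249 (0.64%) was that of all transcripts. The calls rested on few reads. The transcript with the highest ratio was a retained-intron transcript of HDAC1 (ENST00000484305.1), with 1 read untreated and 15 reads after AS. It was followed by retained-intron transcripts of KDM5B (ENST00000648099.1, 5 and 17 reads) and ARID4A (ENST00000469635.1, 3 and 13 reads) and a short coding transcript of SMARCA2 (ENST00000634287.1, 4 and 13 reads). At the other end, a KDM4B transcript without a defined coding sequence (ENST00000588166.1) had 7 and 0 reads. A retained-intron transcript of KMT2A (ENST00000647638.1) had 63 and 15 reads. The next lowest, both within the fold, were transcripts of KMT2D (ENST00000681974.1, 169 and 66 reads, and ENST00000650290.1, 92 and 36 reads), a gene whose canonical transcript was low as well. By type, 2 of 622 protein-coding transcripts were higher and 0 were lower, against 1.21% and 0.27% of all transcripts of that type. Of 342 retained-intron transcripts 4 were higher and 1 was lower, against 1.33% and 0.66%.

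The eCLIP data gave, for each gene and library, the log10 of a whole number plus 1. For G3BP1, CREBBP was at 3.22 and 2.73 in the 2 untreated libraries and at 3.09 and 2.41 in the 2 AS libraries. For G3BP2, CREBBP was at 3.21 and 2.88 untreated and at 3.11 and 2.69 with AS. Replicates of a group lay further apart than the treatments did, and the library totals ran from 4268911 to 26179736. After scaling to the same total, the change of CREBBP with AS was -0.11 on the log10 scale for G3BP1 (95% interval -0.264 to 0.039, limma, adjusted p = 0.996) and -0.07 for G3BP2 (-0.225 to 0.080, limma, adjusted p = 0.995). EP300 was at 2.83 and 2.33 untreated and 2.64 and 1.99 with AS for G3BP1, and at 2.79 and 2.39 untreated and 2.72 and 2.22 with AS for G3BP2. Its changes were -0.15 (-0.359 to 0.054) and -0.05 (-0.207 to 0.113). The deposited AS value of both genes was below the untreated value of the same replicate number in all 4 such pairs. The AS library also had the lower total in each pair. Over all genes, the mean deposited value fell with AS in 15189 of 18888 for G3BP1 and in 14455 of 19035 for G3BP2. The 95% intervals of the scaled changes of CREBBP and EP300 included 0.

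No member passed an adjusted p of 0.05 in limma, and neither did any other gene. The count was 0 of 89 members for AS against untreated with G3BP1 (0% of 18888 genes), 0 of 89 with G3BP2 (0% of 19035 genes), 0 of 90 for the interaction of treatment and protein (0% of 19259 genes) and 0 of 90 for G3BP2 against G3BP1 (0% of 19259 genes). At an unadjusted p under 0.05 there were 0 members for G3BP1, 2 for G3BP2 (HDAC9 and SMARCE1), 1 for the interaction (HDAC6) and 0 for the difference between proteins. Over all genes at that level, 253 of 18888 were higher and 230 lower for G3BP1. For G3BP2 these counts were 329 and 306 of 19035. They were 60 and 84 of 19259 for the interaction, and 177 and 159 of 19259 for the difference between proteins. HDAC9 was at 4.53 and 4.07 untreated and 4.56 and 4.07 with AS for G3BP2, a scaled change of 0.09 (95% interval 0.008 to 0.168). SMARCE1 was at 3.15 and 2.58 untreated and 2.78 and 2.16 with AS, a scaled change of -0.32 (-0.540 to -0.103). For G3BP1, SMARCE1 had the largest scaled change of any member, 0.71, with an interval from -1.234 to 2.651. Its 2 untreated values lay far apart there, at 3.11 and 0.30. The median half-width of the members' intervals was 0.216 for G3BP1 and 0.183 for G3BP2, which is the precision that 2 libraries per group gave.

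Other changes were small or wide. With G3BP1, CHD4 had a scaled change of 0.36 and KAT2A one of 0.26, while SETD9 (-0.55), SMARCD2 (-0.31) and KAT5 (-0.30) had the lowest. With G3BP2, KDM4E (0.43), CHD4 (0.18) and SMARCC2 (0.17) were the highest, and SMARCD2 (-0.24) and ARID3C (-0.19) followed SMARCE1 at the low end. The intervals of all of these changes except that of SMARCE1 with G3BP2 included 0. KDM4E was at or below 0.123 TPM in all 5 TPM libraries.

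**Figure D5:**
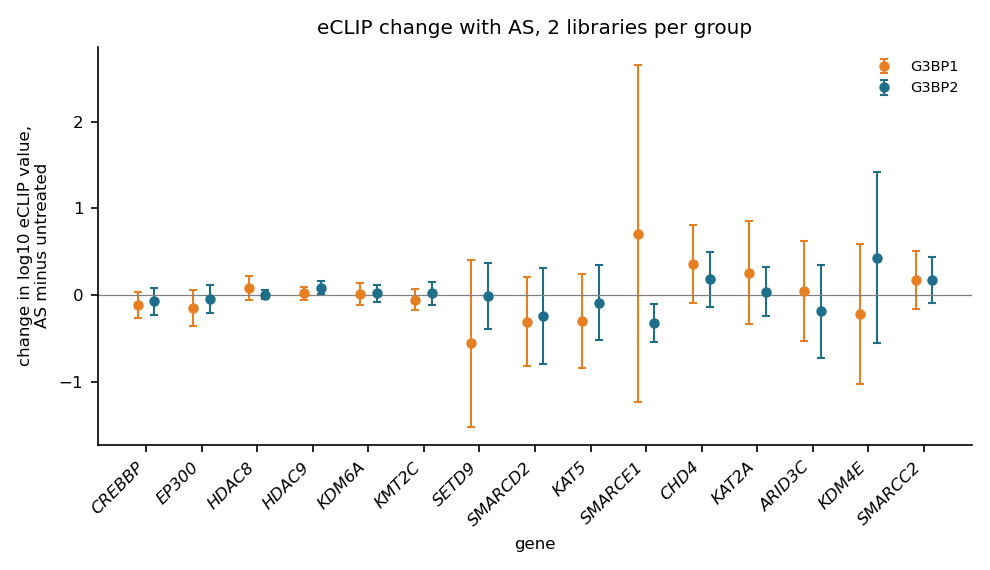
Change in the scaled log10 eCLIP value with AS (AS minus untreated, y axis) for CREBBP, EP300, the 4 members with the highest mean values and those with the 3 largest and 3 smallest changes per protein. Points are limma estimates from 2 libraries per group and bars are 95% intervals, which include 0 for all genes shown except HDAC9 and SMARCE1 with G3BP2.

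The level of the eCLIP value followed gene size more than mRNA level. The highest means over the 4 libraries of a protein were those of HDAC9 (4.20 for G3BP1 and 4.31 for G3BP2), HDAC8 (4.19 and 4.32), KDM6A (4.08 and 4.20) and KMT2C (4.03 and 4.15). Across members, the values were correlated with log10 of the gene's genomic span (r = 0.65 to 0.73 over the 8 libraries) and little with log10 siCtrl TPM (r = 0.10 to 0.18). Over all genes the correlation with span was 0.82 to 0.83. KDM6A shows the contrast, with a high eCLIP value at 1.38 TPM in siCtrl. The members took 1.07% to 1.29% of the summed numbers of each library. Per kb of the summed genomic span of a gene's transcripts, their median number was 2.15 against 2.23 for all genes. Per kb of the gene's own span it was 11.7 against 6.70, so the comparison with other genes turned on which length was used. Highest per kb of summed span were KDM6B (4.15), SETD1B (3.77) and ARID4B (3.72), and KDM1A (0.16), SMARCB1 (0.02) and KAT6B (0) were lowest. KAT6B was listed at 0 in all 8 eCLIP libraries and SMARCB1 in 6 of 8, and both were also at 0 in the rRNA-depleted sums. In the TPM libraries SMARCB1 was at 8.61 to 27.0 TPM, so its 0 in the other data cannot be read as absence.

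Related genes outside the named families were counted in the same way. Of 48 other chromatin enzymes (among them EZH2, the NSD and TET genes and the sirtuins), 36 of 47 with enough TPM were higher in SG and 3 were lower, with a median log2 ratio of 2.53. Of 73 subunits of chromatin complexes, most of them without enzyme activity, 47 of 72 were higher and 5 were lower, with a median of 2.16. After rescaling, the enzymes counted 26 higher and 7 lower, and the subunits 32 and 18, against 35.3% and 25.6% of all genes. In Total against siCtrl, 18 of 46 enzymes and 17 of 72 subunits were lower, against 19.6% of all genes. In both lists 0 were higher, against 1.28% of all genes. In siG3BP1 1 of 46 enzymes was higher and 3 were lower, and 0 of 72 subunits were higher and 1 was lower. Of all genes, 1.12% were higher there and 1.98% lower. In siG3BP2 0 of 46 enzymes were higher and 3 were lower, and 0 of 72 subunits were higher and 2 were lower. Of all genes, 1.23% were higher there and 2.89% lower. After AS, 1 of 46 enzymes was higher and 0 were lower, and 3 of 72 subunits were higher and 1 was lower. Of all genes, 3.64% were higher after AS and 0.56% lower. Against 62.9% of all genes, the share higher in SG before rescaling was 79.8% of the members, 76.6% of the other enzymes and 65.3% of the subunits. These lists were not matched for transcript length and were chosen with earlier results of these data known. Whether the shares differ beyond length was not tested. In siG3BP2, the share lower was 9.30% of the members, 6.52% of the other enzymes and 2.78% of the subunits, against 2.89% of all genes. In siG3BP1, 4 of 87 members and 3 of 46 other enzymes were lower. Among genes with a transcript of at least 5000 nt, 7 of 58 members (12.1%) were lower in siG3BP2, against 5.06% of all such genes. Among shorter genes 1 of 28 members was lower there, against 1.92% of all.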

How the data were processed

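For eCLIP, the authors removed duplicate molecules, aligned reads with STAR to GRCh38 and used CLIPper for peaks, with SMInput libraries to remove background. Their deposited values are log10 of a whole number plus 1, unscaled between libraries, and whether this number is taken before or after the peak and SMInput steps is not given in the sources used here. For the 5 libraries that the labels give as poly-A, the authors deposited TPM from HISAT2 (2.1.0 per the submitters' processing notes) and StringTie for protein-coding genes. The deposited rRNA-depleted values are headed TPM but behave as RPKM: multiplied by transcript length, 100% and 99.9993% of values above 0 were whole multiples (within 0.05) of 1 read at 13291958 (untreated) and 11281587 (AS) reads. The recovered reads summed to 1.75 and 2.07 times these totals, since a read can count for several isoforms, so no count test was run and there is 1 library per condition. TPM gives no depth. The eCLIP totals were 4268911 to 26179736 per library. SMInput libraries were not analysed here, and each column was matched to a sample by its name.

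Gene IDs were looked up in GENCODE release 44 on GRCh38, another release than the authors' (19910 of 19942 rows and 91.1% of transcripts found). Ratios used a pseudocount of 1, fold limits of 2 and 0.5, and a minimum of 1 in the higher library. eCLIP values were converted back to numbers, scaled to the same total and tested with limma 3.58.1 (R 4.3.3) with an intensity trend, over genes above 0 in at least 2 libraries, with Benjamini-Hochberg adjustment at 0.05. The fits were tested on simulated data. Whether the 2 libraries of a group were separate cultures is not stated, so their spread may be technical. Deviations of same-numbered G3BP1 and G3BP2 libraries from their group means were correlated (r = 0.544 untreated, 0.477 with AS, 0.176 and 0.127 for untreated and AS libraries of 1 protein, over 16476 genes). The other steps ran in Python 3.11.15 with matplotlib 3.10.9, scipy 1.17.1, pandas 2.3.3 and numpy 2.4.6.

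The genes named were CREBBP, EP300, the 6 largest and 6 smallest ratios per RNA-seq comparison, the member of each family highest in siCtrl, the 4 largest and 4 smallest transcript ratios, and for eCLIP the members with the 4 largest means, the 3 largest and smallest changes and the 3 largest and smallest values per kb. Other genes were named once their values had been seen. The members and the lists of other enzymes and subunits were chosen with earlier results of these data known. KDM5D is counted and not described. Of the 92 genes, 27 overlap another protein-coding gene and can share its reads, as paralogs can. The alternatives were another pseudocount, rescaling, other folds, another length, replicates left out, a replicate block and other eCLIP scalings. Added after seeing the data were the canonical transcript alone, the gene start to end as length, and siCtrl as the denominator for SG.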

Additional observations from a re-analysis of the deposited data

How the results depend on the processing

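The counts of members moved with the fold asked for. For siG3BP1, the 4 members past a fold of 2 became 0 at a fold of 4, against 0.12% higher and 0.20% lower of all genes. They became 13 at 1.5 (12 lower, against 6.23% of all genes). For siG3BP2, 9 became 1 (lower, against 0.38%) and 19 (17 lower, against 9.70%). For Total against siCtrl, 33 became 11 (all lower, against 2.55%) and 51 (all lower, against 39.5%). After AS, 1 gene became 10 at a fold of 1.5 (9 higher, against 16.5% of all genes). With only the canonical transcript of each gene the count was 0 of 80, against 0.94% higher and 0.11% lower of all genes. With a pseudocount of 0.1, 11 transcripts became 66 of 1262. Of these, 44 were higher and 22 lower, against 5.91% and 1.76% of all transcripts. SG against Total gave 61 members higher at a fold of 4, against 39.3% of all genes. The median eCLIP number per kb, 2.15 for the summed span, was 107 per kb of the longest transcript and 11.7 per kb from gene start to gene end. With a pseudocount of 0.1, 48 of the named genes' ratios stayed on their side of the fold and 3 passed it, SETD7 in siG3BP1 (-1.22) and KDM8 in siG3BP1 (1.14) and siG3BP2 (1.26). Leaving out each eCLIP library in turn gave 0 to 0 members past an adjusted p of 0.05 in limma, with a group of 1 library assumed to vary like the others. Over all genes, 24 were called for the interaction without replicate 1 of AS G3BP1 eCLIP and 2 for G3BP1 without replicate 2 of untreated G3BP1 eCLIP. Values as deposited gave 2 genes for G3BP2, no members among them. A replicate block gave 0 members and 0 genes in each comparison. On the scaled values, pairing by replicate number thus changed no call at an adjusted p of 0.05. On the values as deposited, it took the 2 genes for G3BP2 to 0. For AS against untreated only 2 number pairs exist per protein, and the number is not shown to mark a shared culture. TPM holds no depth, ratios with values near 1 TPM are imprecise, and no RNA-seq difference can be set against replicate error.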
